A study of Mus musculus with 14 samples.

Results

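Transcripts of red cells, platelets and neutrophils were followed in bulk RNA-seq of the hippocampus. The 10 genes were chosen from their measured levels in these same libraries, and they are 10 of the 55536 Ensembl genes in the deposited count table. All 10 were among the 38070 genes with at least 10 counts over all libraries. The red cell genes were Hba-a1, Hba-a2, Hbb-bs, Hbb-bt and Alas2, the platelet genes were Ppbp and Pf4, and the neutrophil genes were S100a8, S100a9 and Ngp. Because the choice used these values, the levels and fold changes of the 10 genes are a description, and no p-value is given for any of them. How many of the 10 the fits over all genes called is printed beside the share of all genes called, and nothing is read from those counts. The study compared 4 groups of mice aged 10 months, with 1 library per mouse. MRL mice (B6.MRL-Faslpr/J, n = 4) carry the lpr mutation of Fas, MRL-IRAK4-KD mice (n = 4) carry it together with a kinase-dead form of IRAK4, IRAK4-KD mice (n = 3) carry only the kinase-dead form, and C57BL6/J mice (n = 3) carry neither. All lines were on a C57BL/6 background, and the kinase-dead allele is carried in every cell, so that blood cells, vessels and brain cells share it. Mice were perfused with cold PBS before the hippocampus was taken, and the blood that remained was not measured separately.

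Mature red cells have no nucleus but keep globin mRNA for a time after they leave the marrow as reticulocytes. Adult mouse hemoglobin is built from the alpha chains of Hba-a1 and Hba-a2 and the beta chains of Hbb-bs and Hbb-bt, and Alas2 encodes the erythroid form of the enzyme that starts heme synthesis. Platelets carry RNA from megakaryocytes, and their alpha granules hold the chemokines encoded by Ppbp and Pf4. Pf4 is also expressed by macrophages at the borders of the brain. S100a8 and S100a9 encode the paired calcium-binding subunits of calprotectin, the main cytosolic protein of neutrophils, and Ngp encodes a protein of neutrophil secondary granules. In bulk tissue, a difference in the number of such cells and a difference in RNA per cell cannot be told apart.

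Library totals ranged from 279941472 to 572398312 counts, and values are CPM, that is counts scaled to the library total of Ensembl genes, multiplied by 1e6. At this depth, 3 counts correspond to between 0.00525 and 0.0107 CPM, which covers counting error only. MRL-IRAK4-KD replicate 4 stood apart from the other 13 libraries. Its score on the first principal component, which held 40.1% of the variance, was 152, whereas the others lay between -27.1 and 8.60. Its library concentration was 13.48 nM against 23.49 to 27.55 nM, and it gave 1.40 counts per read against 1.80 to 2.08. The library labelled IRAK4-KD replicate 3 carried the Fas transcripts of the lpr groups. It had 0 counts of the protein-coding Fas-201 and 514 of Fas-204, which is annotated as a target of nonsense-mediated decay. Fas-201 was at 0 in each of the 8 libraries of the lpr groups and at 345 to 584 counts in the other C57BL6/J and IRAK4-KD libraries. For some genes, fold changes are also given with either or both of these 2 libraries left out, as are some counts of called genes. Group means, medians of gene lists and counts of genes marked at an unadjusted p are given only with both included. Genes of hippocampal neurons, which check the tissue, summed to between 4138 and 5246 CPM in every library.

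The globin genes lie in pairs of near-identical copies, so that the sequences limit what the counts can tell apart. The coding sequences of Hba-a1 and Hba-a2, on chromosome 11 of mm10, differed at 1 of 426 bases, C381T counted from the A of the start codon, and those of Hbb-bs and Hbb-bt, on chromosome 7, differed at 1 of 441 bases, C417T. The differing base is in capitals in the lines that follow, with 20 bases on each side, to show how short the distinguishing stretch is.
Hba-a1: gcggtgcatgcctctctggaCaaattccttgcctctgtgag
Hba-a2: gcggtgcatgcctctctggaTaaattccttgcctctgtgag
Hbb-bs: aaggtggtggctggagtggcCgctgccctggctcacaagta
Hbb-bt: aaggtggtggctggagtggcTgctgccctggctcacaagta
Of all 150-base windows in the Hba-a2 transcript, 266 of 405 also occurred in Hba-a1, and 281 of 554 windows of Hbb-bt also occurred in Hbb-bs. How the counting divided shared reads is set by the authors' processing, and members of a pair are therefore uncertain as single genes. The sums over each pair do not depend on that division.

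Globin transcripts were highest in MRL replicates 1 and 4. Hbb-bs (ENSMUSG00000052305.6, chr7:103826534-103828096, minus strand) had 133, 48.1, 29.5 and 129 CPM in MRL replicates 1 to 4. It had 20.6, 19.4, 18.8 and 47.2 CPM in the 4 MRL-IRAK4-KD libraries, 32.6, 27.0 and 15.6 CPM in C57BL6/J and 20.7, 10.0 and 7.08 CPM in IRAK4-KD libraries. MRL replicates 1 and 4 stood above all other libraries, whereas MRL replicate 3 fell within the range of the C57BL6/J mice. Hbb-bt (ENSMUSG00000073940.3, chr7:103812524-103813996, minus strand) showed the same pair of MRL mice on top, with 54.4 CPM in replicate 1 and 56.5 in replicate 4, and had 19.0 in replicate 2 and 12.1 in replicate 3. Its highest value outside MRL was 14.8 CPM, in MRL-IRAK4-KD replicate 4, and IRAK4-KD replicate 3 had its lowest, 2.79 CPM. The mean of Hbb-bs over MRL mice was 84.8 ± 53.6 CPM (SD, n = 4). It was 26.5 ± 13.8 CPM (n = 4) for MRL-IRAK4-KD mice, 25.1 ± 8.70 (n = 3) for C57BL6/J mice and 12.6 ± 7.17 (n = 3) for IRAK4-KD mice. The spread among MRL mice was thus wider than the distance between any of the other group means.

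The alpha globin genes showed the same MRL libraries on top, with 1 library of another group next in order. Hba-a1 (ENSMUSG00000069919.7, chr11:32283511-32284465, plus strand) had 87.9, 34.4, 22.2 and 85.8 CPM in MRL replicates 1 to 4. It had 14.2, 14.2, 14.1 and 68.1 CPM in the MRL-IRAK4-KD libraries, 27.0, 22.6 and 11.9 CPM in C57BL6/J and 15.4, 7.05 and 5.31 CPM in IRAK4-KD. MRL-IRAK4-KD replicate 4 thus ranked after MRL replicates 1 and 4 and above the remaining MRL mice, and the other 3 libraries of its group lay together. Hba-a2 (ENSMUSG00000069917.7, chr11:32296489-32297298, plus strand) had 74.0, 27.7, 18.1 and 71.1 CPM in MRL replicates 1 to 4, and 54.8 CPM in MRL-IRAK4-KD replicate 4, where the other 3 libraries of that group had 11.4 CPM or slightly more. C57BL6/J libraries held 9.31 to 21.6 CPM of it and IRAK4-KD libraries 4.46 to 11.6 CPM, so that it followed Hba-a1 in each group. Of the embryonic globins, Hba-x, Hbb-bh1 and Hbb-bh2 had 0 counts in all 14 libraries. Hbb-y, named after its values were seen, had 196 counts in total, with group means of 0.0228 CPM in MRL, 0.0379 in MRL-IRAK4-KD, 0.0316 in C57BL6/J and 0.0516 in IRAK4-KD.

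**Figure D1:**
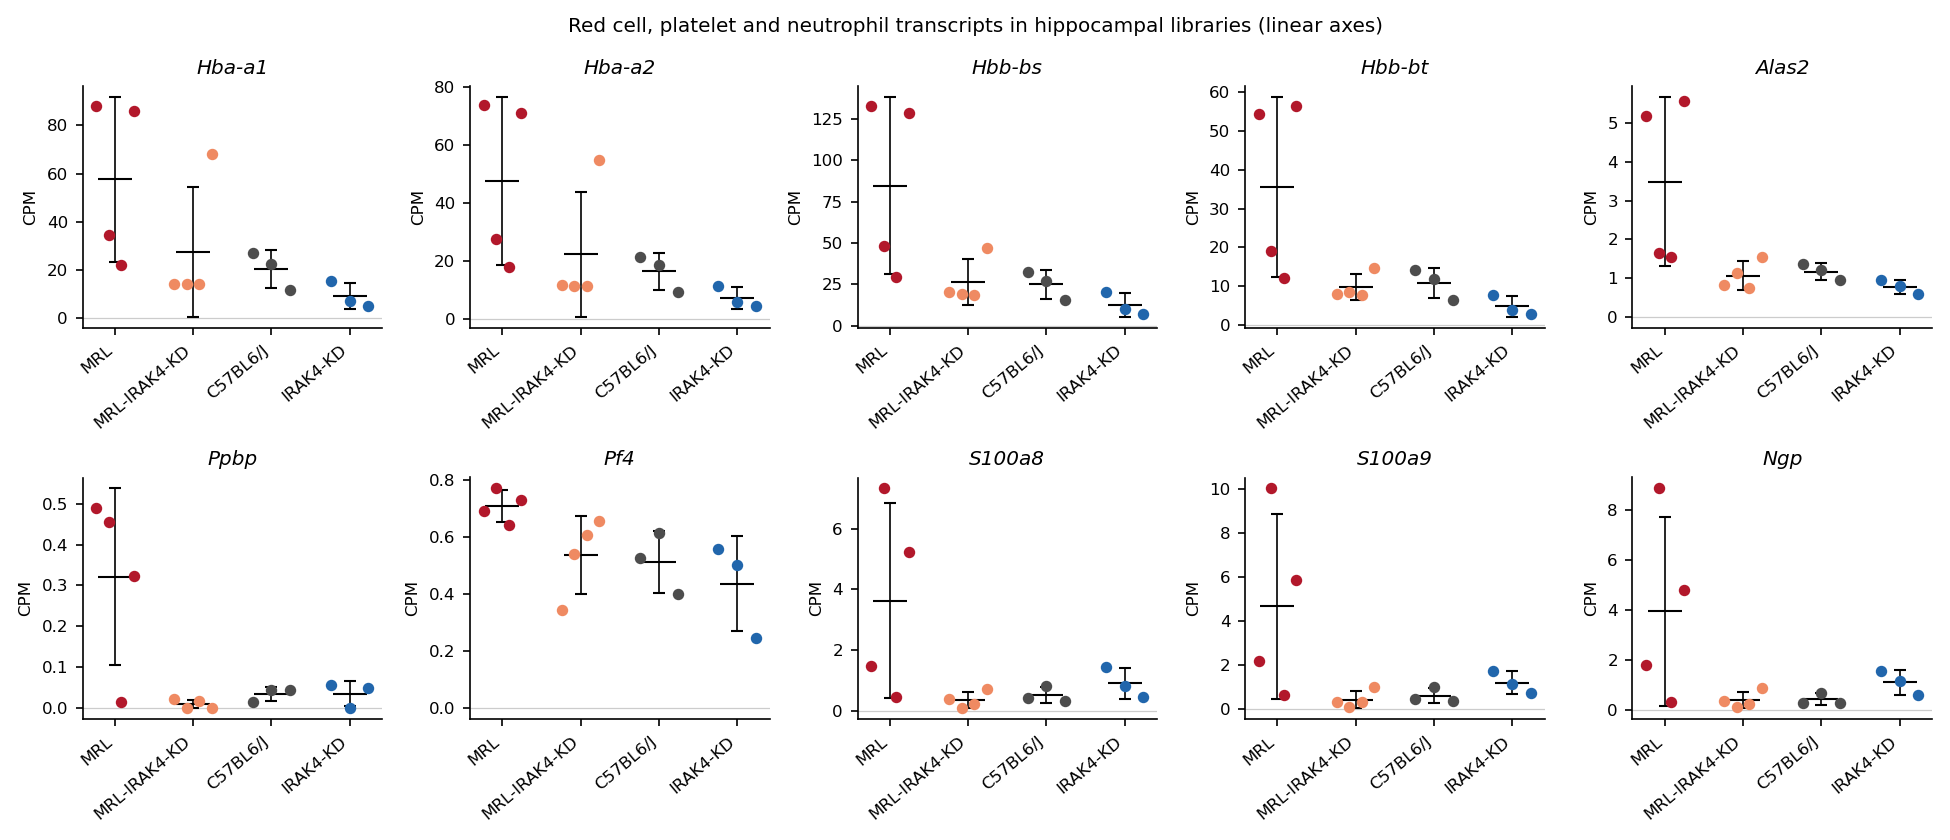
CPM of the 10 genes on linear axes, with 1 point per library in replicate order, a horizontal line at the group mean and bars of 1 SD. Red cell genes are led by MRL replicates 1 and 4 and neutrophil genes by MRL replicates 2 and 4, and MRL-IRAK4-KD replicate 4 is the high point of its group for the globins.

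Alas2 (ENSMUSG00000025270.13, chrX:150547375-150570638, plus strand) followed the globins at a lower level. It had 5.18, 1.65, 1.55 and 5.58 CPM in MRL replicates 1 to 4, as compared with 0.734 to 1.55 CPM in MRL-IRAK4-KD, 0.942 to 1.36 in C57BL6/J and 0.585 to 0.956 in IRAK4-KD. Every MRL library was above every C57BL6/J library, but MRL-IRAK4-KD replicate 4 lay level with the lowest MRL library. Per kilobase of its main transcript, the median over the 14 libraries was 38.0 CPM for Hbb-bs, 27.2 for Hba-a2, 26.9 for Hba-a1, 14.6 for Hbb-bt and 0.572 for Alas2. The ratio of Hbb-bs to Alas2 counts lay between 12.1 and 30.4, with its lowest value in IRAK4-KD replicate 3 and its highest in MRL-IRAK4-KD replicate 4.

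Ratios between globin genes were steadier than their levels. Hba-a1 counts were 1.18 to 1.32 times those of Hba-a2 in the 14 libraries, and the lengths of the transcripts have a ratio of 1.26. Hbb-bs counts were 2.24 to 2.63 times those of Hbb-bt in 13 libraries, and 3.18 times in MRL-IRAK4-KD replicate 4, although the Hbb-bs transcript is the shorter, at 0.893 of the length of Hbb-bt. Alpha to beta globin counts had a ratio of 0.848 to 1.06 in those 13 libraries and of 1.98 in MRL-IRAK4-KD replicate 4. That library thus had alpha globin at a level next to that of MRL replicates 1 and 4 that was not matched by its beta globin. Its low library concentration and counts per read stand beside this ratio, and their part in it was not tested.

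**Figure D2:**
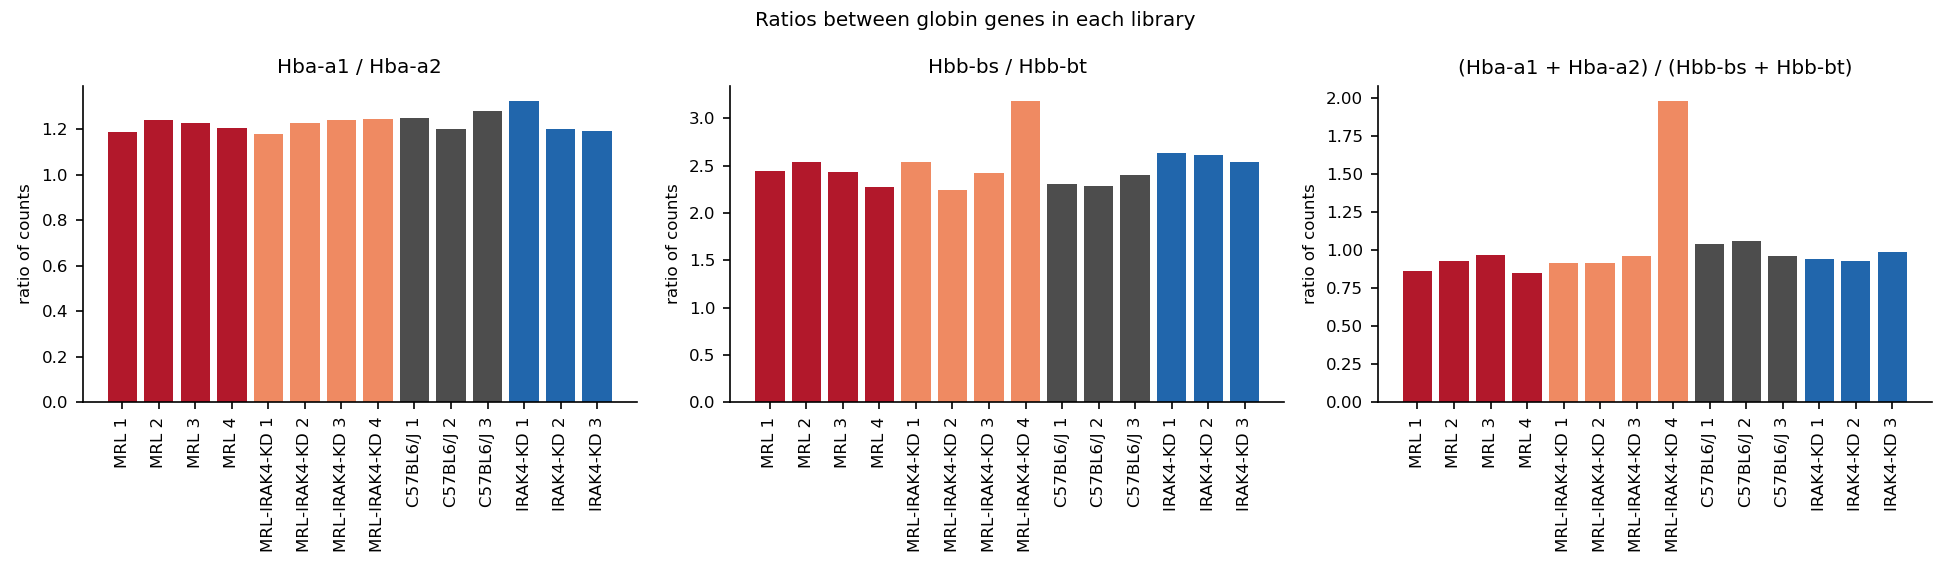
Ratios of counts between globin genes in each library, as bars from 0, coloured by group. Hba-a1 to Hba-a2 stays between 1.18 and 1.32 throughout, and alpha to beta globin is 1.98 in MRL-IRAK4-KD replicate 4 and at most 1.06 elsewhere.

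The transcript table divided Alas2 counts between isoforms that did not occur equally in the groups. Alas2-202 lacks 45 bases, or 15 codons, of Alas2-201, at chrX:150552959-150553003 of mm10 on the plus strand. It also lacks 84 bases before and 16 bases after that stretch, so that its whole sequence is contained in the exons of Alas2-201, which bears on how coverage was divided. The 45 bases are in capitals in the first line, with the 30 bases of spliced transcript on each side, and the second line shows the join without them.
Alas2-201: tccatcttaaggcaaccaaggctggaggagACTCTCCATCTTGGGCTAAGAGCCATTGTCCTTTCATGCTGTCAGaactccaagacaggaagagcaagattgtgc
Alas2-202: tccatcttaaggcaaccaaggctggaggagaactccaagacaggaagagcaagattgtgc
Alas2-202 had 864, 350, 94 and 1832 counts in MRL replicates 1 to 4, that is 34.6%, 38.3%, 13.1% and 67.9% of the counts of the 2 isoforms. Wilson 95% intervals ran from 32.8% to 36.5%, from 35.2% to 41.5%, from 10.9% to 15.8% and from 66.1% to 69.7%. The intervals of replicates 1 and 2 overlapped, and those of replicates 3 and 4 lay apart from them. In MRL-IRAK4-KD replicates 1 to 3, Alas2-202 had 94, 175 and 83 counts, or 23.2%, 45.5% and 26.8%. It was listed at 0 in MRL-IRAK4-KD replicate 4 and in all 6 C57BL6/J and IRAK4-KD libraries, where Alas2-201 had 284 to 496 counts, which allows a share of 0.605% to 1.06% by the limit of 3 counts. MRL-IRAK4-KD replicates 1 to 3 had 210 to 312 counts of Alas2-201. The library labelled IRAK4-KD replicate 3, with its lpr Fas transcripts, was among those listed at 0. Transcript counts are estimates by StringTie from coverage, in which a transcript can be set to 0, and the intervals and limits cover counting error only.

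**Figure D3:**
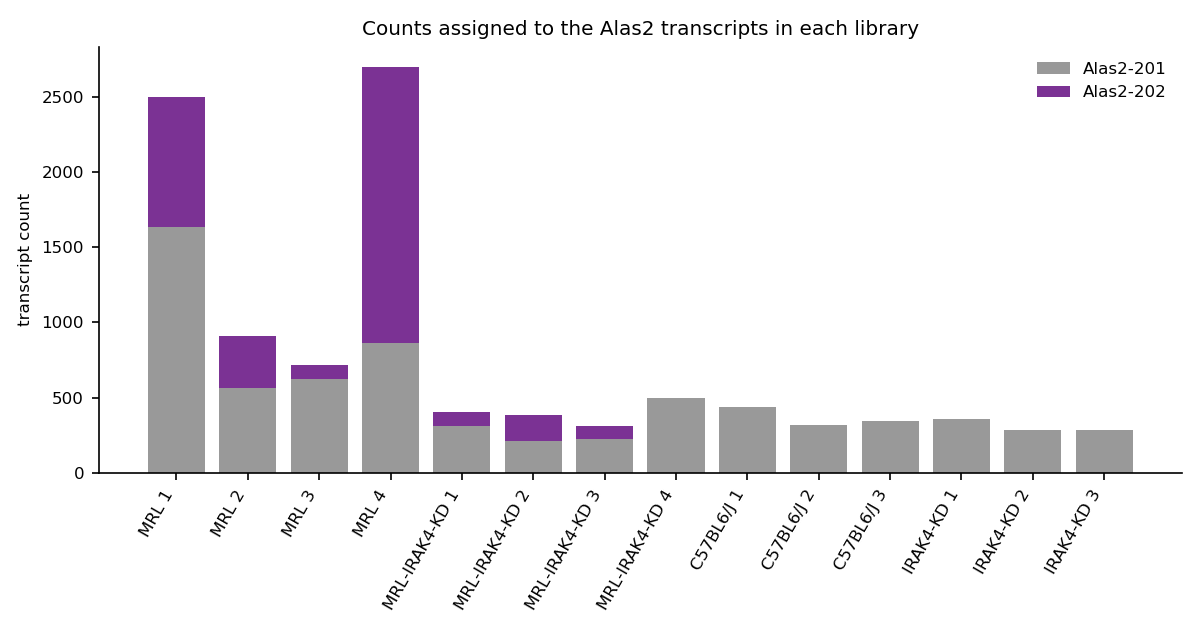
Counts assigned to Alas2-201 and Alas2-202 as stacked bars from 0, 1 bar per library. Alas2-202 appears in 4 of 4 MRL and 3 of 4 MRL-IRAK4-KD libraries and is listed at 0 in the other 7.

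Promoters of the red cell genes are shown because these genes were high in the same libraries. The 300 bases run from 250 before to 50 after the annotated start, in GRCm38.p6 from RefSeq, and all 10 genes matched that table by symbol. Capitals mark matches, on either strand, to a GATA motif (AGATAA or AGATAG or TGATAA or TGATAG) and to a CACCC box (CCACACCC, CCGCACCC or CCCCACCC), the letters bound by the erythroid factors GATA1 and KLF1. The first is Hba-a1 at chr11:32283422-32283721 on the plus strand, the second Hbb-bs at chr7:103827879-103828178 on the minus strand and the third Alas2 at chrX:150547167-150547466 on the plus strand.
Hba-a1: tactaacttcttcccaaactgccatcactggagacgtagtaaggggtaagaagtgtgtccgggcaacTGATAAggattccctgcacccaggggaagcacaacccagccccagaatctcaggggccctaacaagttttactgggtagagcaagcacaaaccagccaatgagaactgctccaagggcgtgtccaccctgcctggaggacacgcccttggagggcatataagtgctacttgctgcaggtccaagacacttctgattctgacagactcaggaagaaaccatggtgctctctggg
Hbb-bs: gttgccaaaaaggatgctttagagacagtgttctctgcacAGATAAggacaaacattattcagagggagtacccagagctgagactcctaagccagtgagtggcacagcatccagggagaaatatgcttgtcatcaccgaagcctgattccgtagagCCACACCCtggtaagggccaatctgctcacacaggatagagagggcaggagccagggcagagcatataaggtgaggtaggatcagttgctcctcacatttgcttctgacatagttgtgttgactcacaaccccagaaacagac
Alas2: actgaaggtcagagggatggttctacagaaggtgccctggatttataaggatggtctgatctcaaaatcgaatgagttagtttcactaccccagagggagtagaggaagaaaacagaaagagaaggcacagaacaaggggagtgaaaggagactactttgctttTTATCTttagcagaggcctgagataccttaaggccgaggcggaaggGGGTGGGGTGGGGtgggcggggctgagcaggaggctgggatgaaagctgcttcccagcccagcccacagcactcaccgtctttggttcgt
A GATA motif was found in 4 of the 5 red cell promoters, all but that of Hbb-bt, and in those of Pf4 and S100a9, as compared with 29.8% of all 32851 promoters in the table. The promoters of Hba-a1 and Hba-a2 are near-identical copies. Their shared GATA match, and their shared ETS match below, are therefore not separate instances. CACCC boxes were found in Hbb-bs, Alas2 and S100a9, as compared with 14.5% of all promoters, and those of Alas2 overlap each other. A C/EBP motif (TTGCGCAA, or TTGCNNCAA, or TTNNGCAAT) was found only in Ngp among the 10 genes, and in 4.3% of all promoters. An ETS motif (ACCGGAAGT, CAGGAA or GAGGAA) was found in 7 of the 10 and in 50.2% of all promoters. These are matches of letters in a short window, and binding was not measured.

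The platelet genes behaved differently from each other. Ppbp (ENSMUSG00000029372.7, chr5:90768518-90770063, plus strand) had 237, 261, 7 and 158 counts in MRL replicates 1 to 4. It had 10, 0, 7 and 0 counts in the MRL-IRAK4-KD libraries, 5, 12 and 17 in C57BL6/J and 22, 0 and 26 in IRAK4-KD. High values were seen in 3 of 4 MRL mice, and MRL replicate 3 lay within the range of the other groups. On the CPM scale, the MRL libraries ran from 0.0147 to 0.490, and no other library was above 0.0557. Pf4 (ENSMUSG00000029373.7, chr5:90772435-90773383, plus strand), its neighbour on chromosome 5, was present in every library at similar levels. It had 0.692, 0.769, 0.641 and 0.729 CPM in MRL replicates 1 to 4, 0.345 to 0.656 in MRL-IRAK4-KD, 0.399 to 0.615 in C57BL6/J and 0.246 to 0.559 in IRAK4-KD. MRL libraries lay above every C57BL6/J library and the lowest of them below MRL-IRAK4-KD replicate 4. Ppbp counts were 0.443 to 0.707 of those of Pf4 in MRL replicates 1, 2 and 4 and at most 0.194 in the other 11 libraries.

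Neutrophil transcripts were highest in MRL replicates 2 and 4, so that the order of the MRL mice was not that of the red cell genes. S100a9 (ENSMUSG00000056071.12, chr3:90692632-90695721, minus strand) had 2.18, 10.0, 0.632 and 5.87 CPM in MRL replicates 1 to 4. It had 0.321, 0.110, 0.310 and 1.02 CPM in MRL-IRAK4-KD, 0.487, 1.01 and 0.352 in C57BL6/J and 1.76, 1.14 and 0.724 in IRAK4-KD. MRL replicate 3 was below all 3 IRAK4-KD libraries, and the remaining MRL libraries were above every library of the other groups. S100a8 (ENSMUSG00000056054.9, chr3:90668978-90670035, plus strand) had 1.49, 7.32, 0.441 and 5.23 CPM in MRL replicates 1 to 4, and its highest value elsewhere was 1.45 CPM in IRAK4-KD replicate 1. Ngp (ENSMUSG00000032484.8, chr9:110419747-110423012, plus strand) had 1.79, 8.88, 0.294 and 4.81 CPM in MRL replicates 1 to 4, and up to 0.848 in MRL-IRAK4-KD, 0.683 in C57BL6/J and 1.54 in IRAK4-KD. All 3 genes were lowest in MRL-IRAK4-KD replicate 2, at 36 counts of S100a8, 39 of S100a9 and 33 of Ngp.

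The neutrophil genes kept close to each other across libraries that differed widely in level. S100a9 to S100a8 counts had a ratio of 0.842 to 1.61, and Ngp to S100a9 counts one of 0.465 to 1.06, whereas S100a9 itself ranged from 39 to 5742 counts. Hbb-bs counts were 4.79 times those of S100a9 in MRL replicate 2 and 177 times in MRL-IRAK4-KD replicate 2. The ratio was 8.80 to 11.8 in the IRAK4-KD libraries and 26.8 to 67.0 in C57BL6/J. Per kilobase, S100a9 had a median of 1.69 CPM over the 14 libraries, S100a8 1.20 and Ngp 0.512, as compared with 0.992 for Pf4 and 0.0288 for Ppbp. A second transcript, S100a9-202, had 28 to 247 counts in the 4 MRL libraries and 0 in all 4 MRL-IRAK4-KD libraries, 0, 27 and 0 in C57BL6/J and 59 to 161 in IRAK4-KD, again as estimates from coverage.

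**Figure D4:**
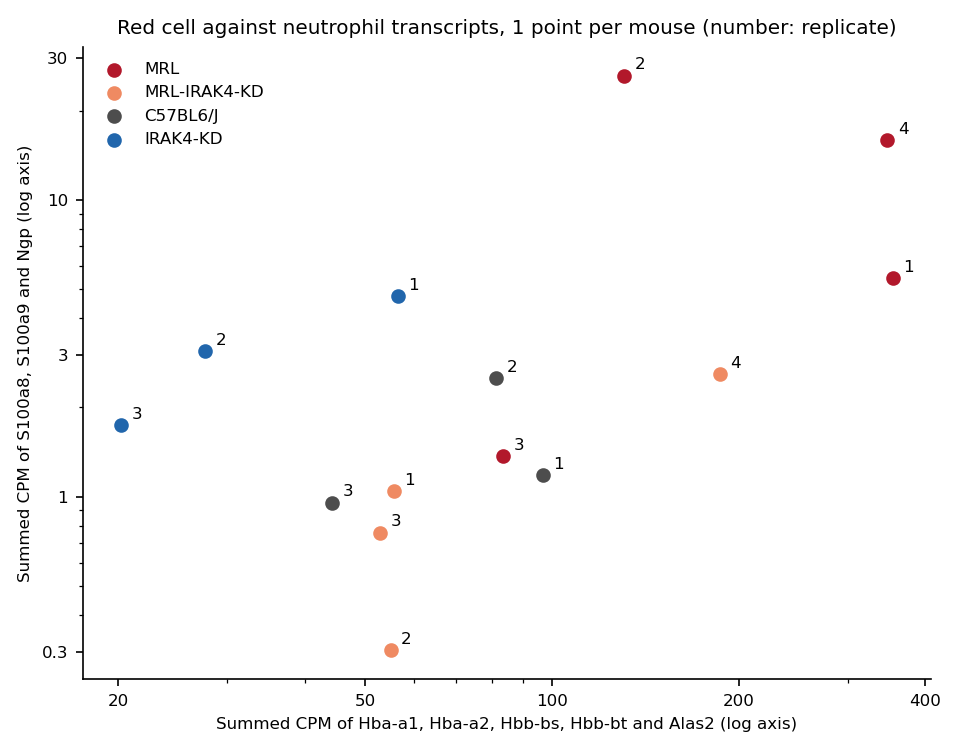
Summed CPM of the 5 red cell genes against that of the 3 neutrophil genes on log axes, 1 point per mouse with its replicate number. MRL replicates 1, 2 and 4 lie highest on the neutrophil axis, MRL replicates 1 and 4 lie farthest right, and MRL replicate 3 lies among the C57BL6/J and MRL-IRAK4-KD mice.

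Across the MRL mice, then, no single order held for the 3 cell types. The 5 red cell genes summed to 354, 131, 83.5 and 348 CPM in MRL replicates 1 to 4, and the 3 neutrophil genes to 5.46, 26.2, 1.37 and 15.9 CPM. Replicate 1 had the highest value of 4 of the 10 genes, replicate 2 of 4 and replicate 4 of 2, and replicate 3 of none. All 10 genes were thus highest in a mouse of the MRL group, and replicate 3 was the lowest MRL library for each of them. Outside MRL, the sum of the red cell genes was highest in MRL-IRAK4-KD replicate 4, at 187 CPM, and that of the neutrophil genes in IRAK4-KD replicate 1, at 4.75 CPM.

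How the kinase-dead form acts on the lpr background is asked by setting MRL against MRL-IRAK4-KD mice. All 10 genes had a higher fitted level in MRL. The edgeR log2 fold change was 1.06 ± 0.60 (SE) for Hba-a1, 1.09 ± 0.59 for Hba-a2, 1.68 ± 0.51 for Hbb-bs, 1.86 ± 0.49 for Hbb-bt and 1.73 ± 0.42 for Alas2. It was 5.02 ± 1.26 for Ppbp and 0.40 ± 0.28 for Pf4. The neutrophil genes had 3.35 ± 0.80 for S100a8, 3.40 ± 0.80 for S100a9 and 3.36 ± 0.87 for Ngp. None of the 10 was called by edgeR's quasi-likelihood test at an adjusted p under 0.05, as compared with 0.0972% of the 38070 genes tested. At an unadjusted p under 0.05 it marked 7 of the 10 as higher, as it did 5.14% of all genes. DESeq2 called 7 of the 10 and 1.3% of all genes with an adjusted p, and limma-voom called 0 and 0.609% of the 38070 genes. For none of the 10 did every MRL library lie above every MRL-IRAK4-KD library, which 2.75% of all genes did. Without MRL-IRAK4-KD replicate 4, the fold changes were 2.05 for Hba-a1, 2.06 for Hba-a2, 2.14 for Hbb-bs and 4.24 for S100a9, so that the alpha globins came level with the beta globins.

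Between MRL and C57BL6/J mice, which differ in Fas, fold changes lay in the same direction. They were 1.57 ± 0.67 (SE) for Hba-a1, 1.83 ± 0.56 for Hbb-bs, 1.65 ± 0.46 for Alas2, 3.33 ± 1.29 for Ppbp, 0.53 ± 0.30 for Pf4, 2.99 ± 0.88 for S100a9 and 3.31 ± 0.97 for Ngp on the log2 scale. edgeR called 0 of the 10 and 0% of all genes. At an unadjusted p under 0.05 it marked 9 of the 10 as higher, as it did 3.16% of all genes. DESeq2 called 2 of the 10 and 0.683% of all genes with an adjusted p, and limma-voom called 0 and 0.176% of all genes. Alas2 and Pf4 were higher in every MRL than in every C57BL6/J library, which 2.84% of all genes were. This comparison shares its MRL libraries with the previous one, and nothing is read from either count, since the genes were chosen on these libraries.

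On the non-lpr background fitted globin levels were lower and fitted neutrophil levels higher in mice with the kinase-dead form, none of them called. IRAK4-KD against C57BL6/J gave log2 fold changes of -1.14 ± 0.69 (SE) for Hba-a1, -0.98 ± 0.57 for Hbb-bs, -0.58 ± 0.47 for Alas2, 0.08 ± 1.27 for Ppbp, 0.99 ± 0.86 for S100a9 and 1.41 ± 0.94 for Ngp. edgeR called 0 of the 10 and 0.147% of all genes, and marked 0 of the 10 and 1.66% of all genes as higher at an unadjusted p under 0.05. DESeq2 and limma-voom called 0 of the 10, and 0.576% of genes with an adjusted p and 0.381% of all genes. Leaving out IRAK4-KD replicate 3 gave -0.86 for Hba-a1 and 1.72 for Ngp. MRL-IRAK4-KD against IRAK4-KD gave 1.65 ± 0.67 for Hba-a1 and 1.13 ± 0.55 for Hbb-bs, but -1.40 ± 0.79 for S100a9 and -1.46 ± 0.86 for Ngp, with 0 of the 10 called by edgeR and 0.0735% of all genes. It marked 2 of the 10 and 5.18% of all genes as higher at an unadjusted p under 0.05. DESeq2 and limma-voom called 0 of the 10, and 0.912% of genes with an adjusted p and 0.699% of all genes. Without both doubtful libraries, the values were 0.38 for Hba-a1, 0.39 for Hbb-bs, -2.50 for S100a9 and -2.53 for Ngp. The interaction, the fold change between MRL and MRL-IRAK4-KD less that between C57BL6/J and IRAK4-KD, was -0.08 ± 0.91 for Hba-a1, 0.70 ± 0.75 for Hbb-bs, 5.10 ± 1.77 for Ppbp, 4.38 ± 1.17 for S100a9 and 4.77 ± 1.28 for Ngp. edgeR called 0 of the 10 and 0.00263% of all genes. At an unadjusted p under 0.05 it marked 4 of the 10 and 1.94% of all genes as higher. DESeq2 and limma-voom called 0 of the 10, and 0.178% of genes with an adjusted p and 0.063% of all genes. Nothing is read from these counts, since the genes were chosen on these libraries. For Hba-a1 the interaction was 0.91 without MRL-IRAK4-KD replicate 4 and 0.20 without IRAK4-KD replicate 3, both of the opposite sign. For Hbb-bs the interaction was 1.16 and 0.99, for Ppbp 4.75 and 4.78, for S100a9 5.23 and 4.65 and for Ngp 5.54 and 5.08.

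**Figure D5:**
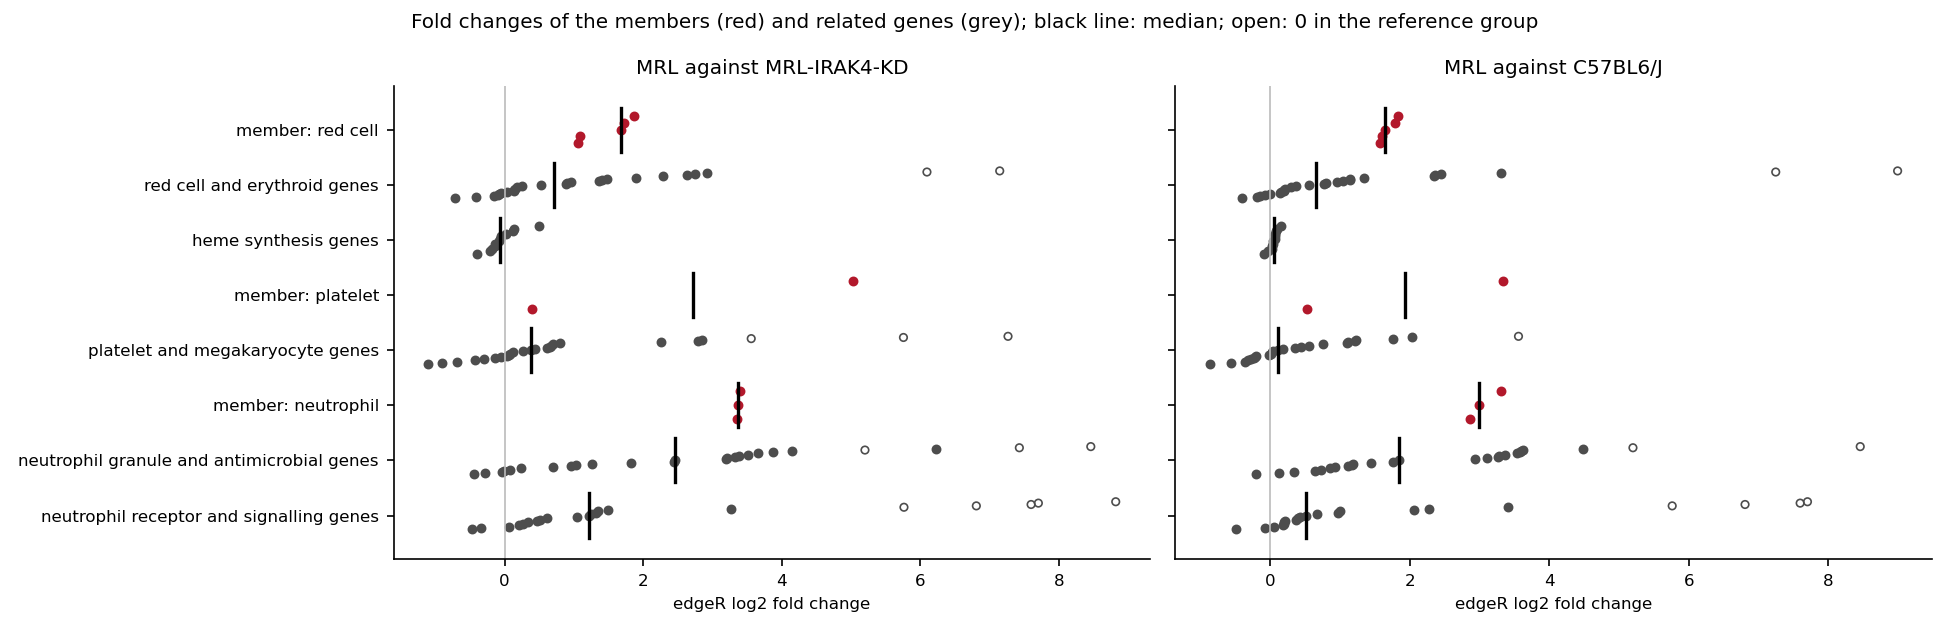
edgeR log2 fold changes of the 10 genes (red) and of related genes by list (grey), with a black line at each median, for MRL against MRL-IRAK4-KD and against C57BL6/J. Open circles are genes at 0 in every library of the reference group, whose fold depends on the prior count. The median is near 0 for heme synthesis and highest among the related lists, at 2.46 and 1.84, for neutrophil granule genes.

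Further genes of the same cell types were examined as lists, of which 109 genes were tested and none of the 10 is a member. These lists were chosen with earlier results of these data known and rest on the same libraries. Their counts are a description and no independent support. edgeR called 0 of the 109 in each of the 5 comparisons. In MRL against MRL-IRAK4-KD it marked 39 as higher and 2 as lower at an unadjusted p under 0.05, beside 5.14% and 6.23% of all genes. The median log2 fold change of the 109 was 0.61, as compared with 0.0023 over all genes. DESeq2 called 12, beside 1.3% of the genes with an adjusted p, and limma-voom called 3, beside 0.609% of all genes. Those called by limma-voom were Clec4d, Trem1 and Tubb1, named after their values were seen and at 0 in every MRL-IRAK4-KD library. Trem1 had 4, 39, 6 and 19 counts in MRL replicates 1 to 4 and 0 in all other libraries. It thus passed the limit of 10 counts through MRL alone. Such genes near the floor also enter the other counts given here for the lists. In MRL against C57BL6/J the numbers were 28 higher and 0 lower, beside 3.16% and 2.39% of all genes, with a median of 0.55 as compared with -0.0046 over all genes. There DESeq2 called 8, beside 0.683% of the genes with an adjusted p, and limma-voom called 1, Clec4d, beside 0.176% of all genes. For 14 of the 109 every MRL library lay above every MRL-IRAK4-KD library, and for 15 above every C57BL6/J library, beside 2.75% and 2.84% of all genes.

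Of the red cell and erythroid genes, 26 of 30 were tested, and 20 of them had a positive fold change in MRL against MRL-IRAK4-KD. edgeR called 0 and marked 9 as higher and 0 as lower at an unadjusted p under 0.05. For this list and those that follow, the share over all genes was 5.14% higher and 6.23% lower. The median was 0.71. The most abundant, Add2, Car2 and Tfrc, which encode a cytoskeletal adducin, a carbonic anhydrase and the transferrin receptor, are also expressed by brain cells. Their log2 fold changes were 0.17 ± 0.20 (SE), 0.15 ± 0.18 and 0.14 ± 0.15. Slc4a1, encoding the anion exchanger band 3 of the red cell membrane, gave other values, with 1.04, 0.956, 0.103 and 1.78 CPM in MRL replicates 1 to 4 and 0.145 to 0.237 in MRL-IRAK4-KD. As for the members, MRL replicate 3 was the low MRL library and lay below the range of the other group.

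Heme synthesis genes had a median near that of all genes. All 12 were tested, edgeR called 0 and marked 1 as higher and 0 as lower at an unadjusted p under 0.05, and the median log2 fold change in MRL against MRL-IRAK4-KD was -0.07. Fech, which inserts the iron, had 55.1 ± 3.24 CPM (SD, n = 4) in MRL and 50.6 ± 15.6 (n = 4) in MRL-IRAK4-KD, where replicate 4 had 27.4. Cpox had 42.8 ± 4.78 and 45.0 ± 7.12 CPM. Alas1, the form of the first enzyme used outside red cells, had 37.6 ± 2.28 and 37.2 ± 6.73 CPM. Alas1 thus differed between these groups by less than its spread, at a log2 fold change of 0.02 ± 0.12 (SE), as compared with 1.73 for Alas2.

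Of the 25 platelet and megakaryocyte genes, 18 had a positive fold change in MRL against MRL-IRAK4-KD, with a median of 0.38. edgeR called 0 and marked 6 as higher and 2 as lower at an unadjusted p under 0.05. Pdgfb, Plek and Thbs1 were the most abundant, and they encode a growth factor, the platelet protein pleckstrin and a matrix glycoprotein that vessels, microglia and other brain cells also express. Plek had 17.1 to 19.6 CPM in MRL and 9.96 to 15.4 in MRL-IRAK4-KD, and its log2 fold change was 0.44 ± 0.14 (SE). Pdgfb had 0.12 ± 0.10 and Thbs1 0.66 ± 0.33. Every MRL library was thus above every MRL-IRAK4-KD library for Plek, whereas the ranges of Pdgfb and Thbs1 overlapped.

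Neutrophil granule and antimicrobial genes had the highest median of the related lists, 2.46 in MRL against MRL-IRAK4-KD and 1.84 against C57BL6/J. With genes at 0 in the whole reference group set to a limit of 3 counts over that group, the medians were 2.45 and 1.78. Of 29 genes, 25 were tested and 21 had a positive fold change in the first comparison, where edgeR called 0 and marked 14 as higher and 0 as lower at an unadjusted p under 0.05, beside 5.14% and 6.23% of all genes. Lyz2, encoding a lysozyme that microglia and macrophages share, had 15.4, 14.1, 11.0 and 21.7 CPM in MRL replicates 1 to 4 and 7.03 to 11.9 in MRL-IRAK4-KD, and a log2 fold change of 0.70 ± 0.21 (SE). Lcn2, encoding lipocalin-2, which reactive astrocytes also express, had 1.32, 2.94, 0.901 and 14.7 CPM in MRL and 0.0918 to 1.43 in MRL-IRAK4-KD. Pglyrp1, a peptidoglycan recognition protein, had -0.45 ± 0.47. MRL-IRAK4-KD replicate 4 had 12.4 CPM of it, as compared with 4.76, 2.47 and 2.43 in replicates 1 to 3 and 2.73 to 7.25 in MRL. The negative value thus rests in part on that library, and no value without it is given. Of the 4 genes left untested, Stfa1, Stfa2l1 and BC100530 had counts only in MRL replicate 4, and Stfa3 had none.

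Of the 21 neutrophil receptor and signalling genes, 19 had a positive fold change in MRL against MRL-IRAK4-KD, with a median of 1.22, and edgeR called 0 and marked 9 as higher and 0 as lower at an unadjusted p under 0.05. Itgam, Fcgr3 and Csf3r, encoding the integrin CD11b, an IgG receptor and the receptor of granulocyte colony-stimulating factor, are shared with microglia, and had log2 fold changes of 0.61 ± 0.23 (SE), 0.20 ± 0.16 and 0.34 ± 0.16. Itgam had 7.62 CPM in MRL-IRAK4-KD replicate 4, as compared with 18.5, 20.6 and 20.9 in replicates 1 to 3 and 22.3 to 28.9 in MRL. Its fold change thus rests in part on that library. Cxcr2, the chemokine receptor of circulating neutrophils, named after its values were seen, had 0.0909, 0.250, 0.0210 and 0.155 CPM in MRL replicates 1 to 4 and 0 in all 4 MRL-IRAK4-KD libraries. It had 0, 0.0393 and 0 CPM in C57BL6/J and 0.0329, 0.0102 and 0.0184 in IRAK4-KD libraries. MRL replicate 3 lay within the range of those libraries.

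Markers of other cells moved with some of these values. Monocyte genes summed to 137 to 262 CPM in MRL and 97.7 to 122 in MRL-IRAK4-KD, and 6 of 11 were marked as higher in MRL at an unadjusted p under 0.05, beside 5.14% of all genes. Chil3 is in this list and in that of neutrophil granule genes, and its mean of 0.555 CPM is a small part of the sum. Endothelial and mural genes summed to 337 to 524 CPM in MRL and 233 to 306 in MRL-IRAK4-KD, with 10 of 17 marked as higher and 8 higher in every MRL library, beside 2.75% of all genes. Microglial genes summed to 497 to 605 and 463 to 587 CPM, with 3 of 12 marked as higher. B and T cell genes summed to 2.63 to 3.41 CPM in MRL and 2.35 to 4.03 in MRL-IRAK4-KD, with 0 of 16 marked, and reached 7.89 CPM in IRAK4-KD replicate 3, the highest of the 14 libraries. Choroid plexus genes, which follow the dissection, summed to between 76.7 CPM in MRL replicate 2 and 7669 in MRL-IRAK4-KD replicate 4, and meningeal genes to between 106 and 336 CPM. Pituitary genes summed to 87.0 CPM in MRL replicate 3 and to at most 6.62 in the other 13 libraries. Hippocampal neuron genes had 0 of 13 marked as higher and 5 as lower in MRL, beside 6.23% of all genes as lower, with a median log2 fold change of -0.36. No gene of these lists was at 0 in every library. edgeR called 0 of them in this comparison, and the part of such cells in the levels of the 10 genes was not tested.

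The genes whose pattern over the 14 libraries was most like that of a member differed by cell type. Likeness was the Pearson correlation of log2(CPM + 0.1) among 23384 genes with a mean of at least 0.1 CPM, given without a test because the libraries share groups, depth and tissue composition. For S100a9 the nearest were Camp (0.975), Ltf (0.974), Chil3 (0.963), Cd177 (0.958) and Mmp8 (0.937), which encode granule and surface proteins of neutrophils or, for Chil3, a chitinase-like protein of myeloid cells. The same 5 genes came nearest to Ngp, at 0.932 to 0.984. For Hbb-bs the nearest were Rsad2 (0.948), Icam2 (0.935), Oasl2 (0.927), Lyz2 (0.924) and Tln1 (0.919), among which Rsad2 and Oasl2 are interferon-induced and Icam2 is an adhesion molecule of endothelium, platelets and leukocytes. For Alas2 they were Vwf (0.933), Apol11b (0.924), AU021092 (0.916), Lyz2 (0.910) and Gimap4 (0.909). Vwf, the von Willebrand factor of endothelium and platelets, had 27.9, 17.6, 18.0 and 62.9 CPM in MRL replicates 1 to 4 and at most 12.5 in the other libraries.

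Among the 5 genes nearest to Ppbp were Mmp8 (0.872), Slfn4 (0.871), Slc4a1 (0.870) and Pml (0.849). Red cell and neutrophil genes thus came before the platelet genes that were ranked. Pf4 was nearest to Slc22a8 (0.867), Ptgds (0.863), Lyz2 (0.856), Klf2 (0.851) and Col9a2 (0.850), of which Slc22a8 and Ptgds, a transporter and a prostaglandin synthase, are known from barrier cells and meninges. No platelet gene of the list was among the 5 nearest to either Ppbp or Pf4. Members were left out of the ranking. Platelet genes such as Tubb1 and Treml1, at means of 0.0172 and 0.0750 CPM, fell below its limit of 0.1 CPM. The absence of platelet genes is therefore partly set by the limit, and nothing is read from it. With a pseudocount of 1 the same 5 genes remained for S100a9 and Ngp, 4 of 5 for Hbb-bs and Pf4 and 2 of 5 for Alas2 and Ppbp. By Spearman's rank correlation 5 of 5 remained for S100a9 and Ngp, 2 for Hbb-bs and Pf4, 1 for Alas2 and 0 for Ppbp.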

How the data were processed

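Hippocampal RNA of 14 mice was sequenced with 1 library per mouse. According to the methods and the labels, the authors used HISAT2 2.1.0, SAMtools 1.9 and the mm10 build for alignment and StringTie 2.1.0 for quantification, and deposited unnormalized counts of genes and of transcripts as whole numbers. StringTie derives counts from coverage at a set read length. Counts exceeded reads, so that intervals may be too narrow. The annotation is not given in the sources used here, and the identifiers are those of GENCODE M21. The methods name a SMART-seq preparation, whereas the labels and the sheet of the sequencing core, from which library concentrations and reads were read, name a KAPA HyperPrep mRNA kit.

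The 55536 Ensembl genes were kept, and 26345 rows that are no Ensembl gene held 0.0254% to 0.188% of a library's counts. A single model of 4 groups was fitted with edgeR 4.0.16 in R 4.3.3 (TMM, robust quasi-likelihood) to those with a total of 10 or more counts, using the Benjamini-Hochberg adjustment. The members and gene lists were chosen with earlier results of these data known, and the lists are tested only over the whole table. Named were all members, the 3 most abundant genes of each related list, any gene called, and the 5 genes nearest in pattern to 6 members. Alternatives were RLE factors, library size only, DESeq2 1.42.0, limma-voom (limma 3.58.1), other filters, a replicate block, the 8 MRL and MRL-IRAK4-KD libraries, libraries left out, and summed globin pairs. Values of some single genes are not reported here. The steps were tested on simulated data. P-values come from tests of group differences against the spread between mice. Python 3.11.15, scipy 1.17.1 and matplotlib 3.10.9 were used for ratios, intervals and figures.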

Additional observations from a re-analysis of the deposited data

Results flagged for a closer look

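A library was set aside for a closer look where, in a group of 4, the highest or lowest value lay far from the other 3 relative to the whole range of the group. For independent, normally distributed values chance marks about 1 in 20 groups. The groups here share libraries and genes, and CPM need not be normal, so that no excess over chance is read. Of 68 groups, 15 were marked, 9 of them through MRL-IRAK4-KD replicate 4. That library was the high outlier of its group for Hba-a1 at 68.1 CPM, Hba-a2 at 54.8, Hbb-bs at 47.2 and Hbb-bt at 14.8, and for the ratio of alpha to beta globin counts at 1.98. It was also high for Lcn2 at 1.43 CPM, and low for Add2 at 181, Car2 at 84.4 and Fech at 27.4 CPM. MRL-IRAK4-KD replicate 2 was marked for its ratio of Hbb-bs to S100a9 counts, 177.

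Among MRL libraries, replicate 4 was high for Lcn2 at 14.7 CPM, Pglyrp1 at 7.25 and Fcgr3 at 22.4, replicate 1 for Fech at 59.9 CPM, and replicate 3 was low for the ratio of Ngp to S100a9 counts, 0.465. The causes were not tested.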

How the results depend on the processing

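The number of related genes called, 0 in each comparison, depended on the tool. DESeq2 called 12 in MRL against MRL-IRAK4-KD, 8 in MRL against C57BL6/J, 1 in MRL-IRAK4-KD against IRAK4-KD (Fpr1), 1 in IRAK4-KD against C57BL6/J and 5 in the interaction (Camp, Cxcr2, Mmp8 and Wfdc21 among them), and limma-voom called 3 and 1 in the first 2. The cause of this dependence was not tested. In the same order, DESeq2 called 1.3%, 0.683%, 0.912%, 0.576% and 0.178% of the genes with an adjusted p. In the first 2 comparisons limma-voom called 0.609% and 0.176% of all genes. Leaving out 1 library at a time gave 0 to 1 in MRL against MRL-IRAK4-KD, the 1 without MRL replicate 3, and 0 in the other comparisons. A replicate block gave 1, Lcn2, in MRL against MRL-IRAK4-KD and 0 elsewhere. Whether the numbers pair the mice was not settled. Deviations of same-numbered libraries correlated at -0.25 to 0.37, and libraries with different numbers were not compared. Other settings gave 0.

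Over all genes, calls in MRL against MRL-IRAK4-KD were 37, with 18 on the 8 libraries, 52 without MRL-IRAK4-KD replicate 4, 395 by DESeq2 and 232 by limma-voom. In the order used above, the other comparisons had 0, 28, 56 and 1 calls, 21, 65, 106 and 15 without MRL-IRAK4-KD replicate 4, 197, 283, 166 and 59 by DESeq2, and 67, 266, 145 and 24 by limma-voom. Leaving out IRAK4-KD replicate 2 gave 11 in MRL-IRAK4-KD against IRAK4-KD, and leaving out replicate 3 gave 33 in IRAK4-KD against C57BL6/J.

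All 240 fold changes of the 10 genes in MRL against MRL-IRAK4-KD, and all 230 against C57BL6/J, stayed above 0 under the alternatives run. The genes were chosen on these libraries, and the alternatives refit the same genes on largely the same libraries. The shared sign is therefore no independent support. Over the 5 comparisons, 28 of 1160 values moved by at least 1 SD within groups, 12 of them with both doubtful libraries left out and 7 by limma-voom. The depth limits Ppbp most, which had 0 counts in 3 libraries.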
